A study of Mus musculus with 10 samples.

Results

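The genes described here are 39 mouse genes of glucose and monocarboxylate transport, glycolysis and the pentose phosphate pathway, named by symbol and looked up in the array annotation. Of these, 34 had a probe set of their own and 25 passed a filter on low values, out of 10590 genes that passed it and 18193 genes with a probe set in all. They were measured in fully grown mouse oocytes at the germinal vesicle stage, with RNA of about 50 oocytes from 1 mouse per sample and 1 array per sample. The RNAi-transgenic group (6 samples, replicates 4, 5, 6, 11, 12 and 13) carried a transgene whose RNA interference lowers basonuclin (Bnc1) mRNA in oocytes only, and the non-transgenic group (4 samples, replicates 1, 2, 7 and 8) did not carry it. Bnc1 is a zinc finger protein of germ cells and keratinocytes. The sources used here give no strain, age, promoter or number of transgenic lines, and no genotype or treatment that both groups share. The list was selected on pathway membership with the log2 differences between these same 2 groups already known, and each probe set on its mean intensity over the 10 samples, so the comparisons below describe the genes and are not independent evidence.

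Glycolysis splits glucose into pyruvate through a chain of enzymes that starts with hexokinase, has its main control point at phosphofructokinase and ends with pyruvate kinase, after which lactate dehydrogenase interconverts pyruvate and lactate. The pentose phosphate pathway branches off after hexokinase and makes NADPH in its oxidative part. Its non-oxidative part makes ribose phosphate and returns sugars to glycolysis through transketolase and transaldolase. Mouse oocytes are known for using little glucose by glycolysis themselves. They depend on pyruvate from the surrounding cumulus cells, and send much of the glucose they do take up through the pentose phosphate pathway.

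The RefSeq promoters of 5 genes are shown because they are those with the largest differences among the enzymes: Tktl1, Hk2, Ldha and Pfkfb3 were higher and Tpi1 was lower in RNAi-transgenic oocytes. Each window runs from 250 bases before the start of transcription to 50 after it (300 bases, 5′ to 3′ on the gene's strand, GRCm38.p6), and the most upstream start is shown for Ldha and Pfkfb3, which have 2 listed starts each. Capitals mark ACGTG on either strand. It is 1 form of the core of hypoxia response elements and is also contained in the E-box CACGTG. Other forms of that core were not counted.
Tktl1, chrX:74177009-74177308, plus strand: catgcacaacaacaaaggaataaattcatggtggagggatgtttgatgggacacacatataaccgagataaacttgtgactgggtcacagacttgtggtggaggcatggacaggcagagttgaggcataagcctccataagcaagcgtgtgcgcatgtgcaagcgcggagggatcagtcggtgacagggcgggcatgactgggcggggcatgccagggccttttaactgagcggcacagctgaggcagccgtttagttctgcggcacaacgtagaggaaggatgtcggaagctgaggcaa
Hk2, chr6:82774405-82774704, minus strand: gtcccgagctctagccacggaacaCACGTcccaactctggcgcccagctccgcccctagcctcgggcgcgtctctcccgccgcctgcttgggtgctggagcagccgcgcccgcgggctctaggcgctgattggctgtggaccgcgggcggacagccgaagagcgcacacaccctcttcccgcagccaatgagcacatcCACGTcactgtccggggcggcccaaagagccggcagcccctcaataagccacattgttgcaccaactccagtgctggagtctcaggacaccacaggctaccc
Ldha, chr7:46845554-46845853, plus strand: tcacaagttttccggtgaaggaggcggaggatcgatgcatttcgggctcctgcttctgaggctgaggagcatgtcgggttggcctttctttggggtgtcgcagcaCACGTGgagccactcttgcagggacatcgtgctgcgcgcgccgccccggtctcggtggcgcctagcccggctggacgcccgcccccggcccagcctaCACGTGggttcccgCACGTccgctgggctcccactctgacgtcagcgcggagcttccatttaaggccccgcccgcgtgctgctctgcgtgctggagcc
Pfkfb3, chr2:11553880-11554179, minus strand: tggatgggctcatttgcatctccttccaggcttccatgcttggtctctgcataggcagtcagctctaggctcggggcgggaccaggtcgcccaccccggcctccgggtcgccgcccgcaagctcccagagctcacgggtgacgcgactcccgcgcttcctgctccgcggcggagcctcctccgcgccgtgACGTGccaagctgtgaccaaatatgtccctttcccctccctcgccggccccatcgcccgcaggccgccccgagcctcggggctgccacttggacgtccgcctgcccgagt
Tpi1, chr6:124814109-124814408, minus strand: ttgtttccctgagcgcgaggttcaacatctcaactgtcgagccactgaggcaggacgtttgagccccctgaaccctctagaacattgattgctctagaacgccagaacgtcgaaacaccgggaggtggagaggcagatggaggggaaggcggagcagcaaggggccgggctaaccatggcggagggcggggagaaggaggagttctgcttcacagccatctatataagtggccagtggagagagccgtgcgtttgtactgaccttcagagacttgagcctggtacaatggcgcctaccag
Counting both strands, ACGTG occurred 5 times in the Ldha window, where 2 palindromic CACGTG sites give 2 of these matches each, 2 times in Hk2 and 1 time in Pfkfb3. It occurred 0 times in the Tktl1 and Tpi1 windows, 0 times at the second start of Ldha and 2 times, in 1 CACGTG, at the second start of Pfkfb3. The GC box core GGGCGG occurred 2 times in Tktl1, 3 times each in Hk2, Ldha and Pfkfb3 and 1 time in Tpi1, and TATAAA occurred in none of the 5 windows. Of all 32851 RefSeq mouse promoter windows of this length, 19.6% held ACGTG, 7.15% held CACGTG, 35.7% held GGGCGG and 13.6% held TATAAA. These matches are letters in a window and no binding was measured here.

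The targeted gene and the samples were checked first. Bnc1 averaged a log2 intensity of 3.85 ± 0.21 (SD, n = 6) in RNAi-transgenic and 11.57 ± 0.15 (SD, n = 4) in non-transgenic oocytes, at least 95.1-fold lower (limma adjusted p = 2.65e-11), so every sample matched its label. Arrays of 1 group correlated at 0.978 to 0.992, and 0 pairs were identical. RNAi-transgenic replicates 12 and 13 had the highest correlation of deviations from the group mean among pairs of a group. It was weak (0.13, next highest pair 0.07) and was not tested. The counts of the pathway genes were also computed without both. RNAi-transgenic replicate 6 had the largest signal difference between 3′ and 5′ control probe sets of beta-actin in its group. Oocyte markers were bright in both groups and all 13 were tested, with 0 higher and 2 lower. Among all genes tested, 18.9% were higher and 18.3% were lower. Their 3 most abundant members were Ooep at 14.69 ± 0.12 and 14.77 ± 0.06, Nlrp5 at 14.69 ± 0.13 and 14.83 ± 0.05, and Oosp1 at 14.65 ± 0.07 and 14.66 ± 0.04 in RNAi-transgenic (SD, n = 6) and non-transgenic oocytes (SD, n = 4). Each sample pools the mRNA of many oocytes, so fewer cells of a type and less RNA per cell cannot be told apart.

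Across the pathway, more genes were higher than lower in RNAi-transgenic oocytes, and the changes differed from step to step. Of the 25 genes tested, 14 were higher (56%), 3 were lower (12%) and 8 did not pass an adjusted p of 0.05 in limma. Among all 10590 genes tested, 18.9% were higher, 18.3% were lower and 37.2% were called in either direction. The groups did not overlap for 13 of the 25 genes (52%), against 28% of all genes tested. Because the genes were chosen with this contrast known, nothing further is read from these shares. The median log2 difference, RNAi-transgenic minus non-transgenic, was 0.55 over the 25 genes and -0.03 over all genes tested. The filter asked for a log2 intensity above 5 (an intensity of 32) in at least 4 samples, and all 25 genes were above it in every RNAi-transgenic sample. Of them, 19 were above it in every non-transgenic sample as well, with 9 higher, 3 lower and 7 not called. Among all 9641 genes above the filter level in every sample, 17.2% were higher and 19.1% were lower. Slc16a7, Aldoc and Ldha were above the filter level in no non-transgenic sample and so had to differ. They are among the 14 higher genes and the 13 without overlap. Slc16a1, Hk1 and Tktl1 were above the filter level in 3, 1 and 3 of 4 non-transgenic samples.

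**Figure D1:**
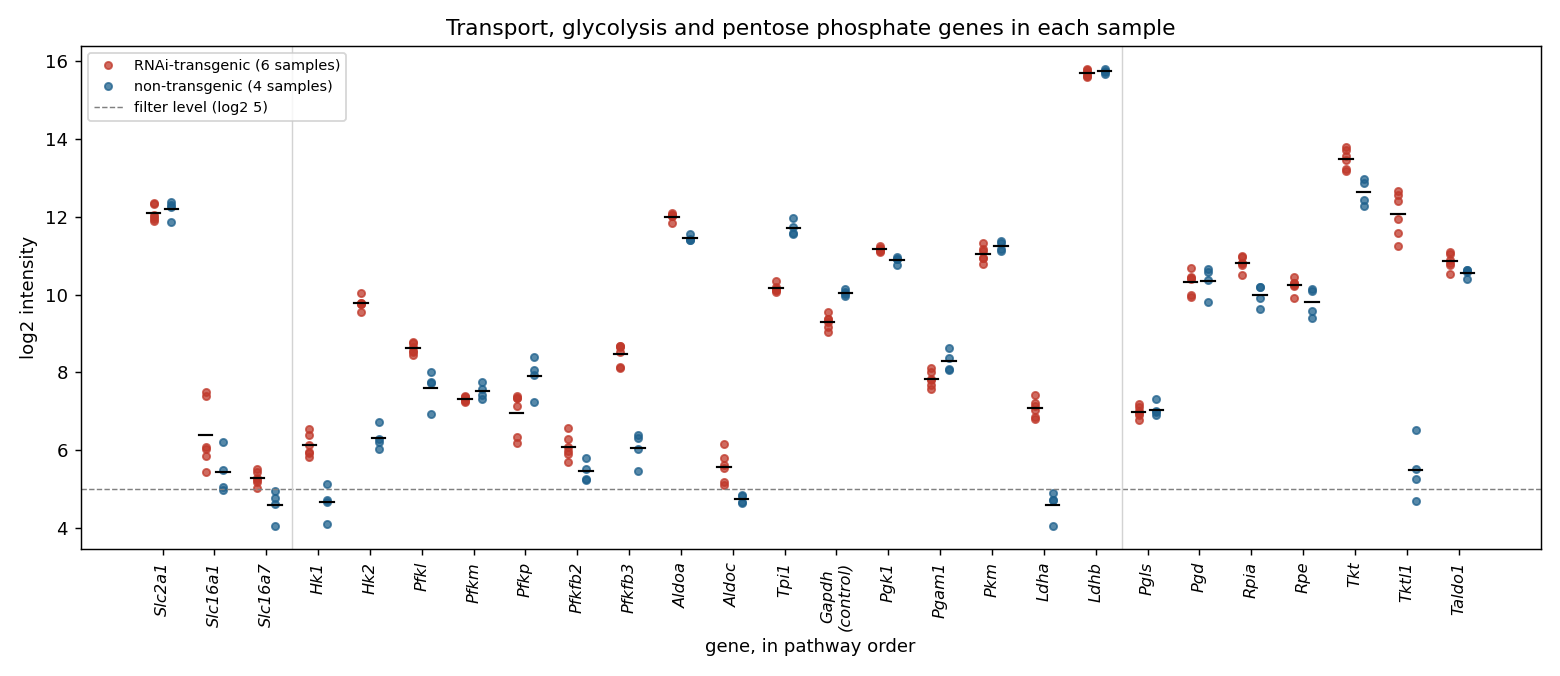
Log2 intensity of each gene in each sample, in pathway order, with RNAi-transgenic samples (red) left of non-transgenic samples (blue), group means as bars and the filter level of log2 5 dashed. Hk2, Pfkfb3, Ldha and Tktl1 sit clearly higher in all 6 RNAi-transgenic samples, and Tpi1 sits lower, at 10.06 to 10.34 against 11.56 to 11.97.

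Among the transporters the lactate and pyruvate carrier Slc16a7 was higher, and no change was resolved for the glucose transporter Slc2a1. Of 7 transporter genes, 3 were tested, and 1 was higher and 0 were lower. Slc2a1 (GLUT1, the widespread glucose transporter) averaged 12.09 ± 0.19 in RNAi-transgenic oocytes (SD, n = 6) and 12.21 ± 0.22 in non-transgenic oocytes (SD, n = 4). Its log2 difference of -0.11 had a 95% interval of -0.38 to 0.15 (adjusted p = 0.501 in limma), so no change was resolved. Slc16a7 (MCT2, a high-affinity carrier of pyruvate and lactate) ranged from 5.04 through a median of 5.25 to 5.52 in RNAi-transgenic samples, and had 4.04, 4.95, 4.60 and 4.78 in non-transgenic samples. The gene was at least 1.22-fold higher (limma adjusted p = 0.00665), the smallest margin over the filter of the 25 pathway genes that passed. Slc16a7 passed only through RNAi-transgenic samples, so at least 4 of these had to lie above all non-transgenic samples. The lack of overlap between the groups was thus largely set by the filter and is no evidence. Slc16a1 (MCT1, the general monocarboxylate carrier) had the largest SD among RNAi-transgenic samples of the 3 tested transporters, at 6.09, 5.43, 5.86, 6.03, 7.49 and 7.39 in replicates 4, 5, 6, 11, 12 and 13. It had 4.97, 5.48, 5.06 and 6.21 in non-transgenic replicates 1, 2, 7 and 8. The 2 highest values came from replicates 12 and 13, the groups overlapped, and the log2 difference of 0.95 (SE 0.42) was not past the threshold (limma adjusted p = 0.1). Slc2a3, Slc2a4, Slc2a8 and the lactate exporter Slc16a3 were below the filter in both groups.

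At the entry of glycolysis both tested hexokinases, which trap glucose as glucose 6-phosphate, were higher. Hk2, the inducible isoform, ranged from 9.55 through a median of 9.76 to 10.04 in RNAi-transgenic samples, and had 6.29, 6.03, 6.22 and 6.71 in non-transgenic samples. The lowest RNAi-transgenic sample lay far above the highest non-transgenic one, and the difference was 11.0-fold (log2 3.46, SE 0.14, limma adjusted p = 1.15e-08). Hk1, the constitutive isoform, ranged from 5.81 through 6.04 to 6.54 in RNAi-transgenic samples, and had 4.72, 5.12, 4.67 and 4.09 in non-transgenic samples. It was at least 2.13-fold higher without overlap (limma adjusted p = 0.00018), with only 1 of 4 non-transgenic samples above the filter level. Gpi1, the isomerase of the next step, has no probe set listed for it alone in the annotation used and is not analysed here.

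The isoforms of phosphofructokinase 1, the committed step, went different ways. Pfkl, the liver type, ranged from 8.45 through 8.61 to 8.77 in RNAi-transgenic samples, and had 6.93, 8.00, 7.76 and 7.72 in non-transgenic samples. It was 2.03-fold higher without overlap (limma adjusted p = 0.00118). Pfkp, the platelet type, had 7.13, 6.19, 6.33, 7.33, 7.38 and 7.34 in RNAi-transgenic replicates 4, 5, 6, 11, 12 and 13, and 7.93, 7.25, 8.38 and 8.06 in non-transgenic replicates 1, 2, 7 and 8. RNAi-transgenic replicates 5 and 6 were the lowest, non-transgenic replicate 2 lay within the range of the RNAi-transgenic samples, and the gene was 1.94-fold lower (limma adjusted p = 0.0248). That call was lost without non-transgenic replicate 1, 7 or 8 (adjusted p = 0.0522, 0.0793 and 0.062). Pfkm, the muscle type, averaged 7.31 ± 0.07 (SD, n = 6) in RNAi-transgenic and 7.51 ± 0.19 (SD, n = 4) in non-transgenic oocytes, a log2 difference of -0.20 (95% interval -0.42 to 0.01, limma adjusted p = 0.133) that passed the threshold only after quantile normalization (-0.28, adjusted p = 0.0301).

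The bifunctional enzymes that set the level of fructose 2,6-bisphosphate, the activator of phosphofructokinase 1, were both higher where measured. Pfkfb3, the isoform with the highest kinase activity relative to its phosphatase, ranged from 8.11 through 8.58 to 8.69 in RNAi-transgenic samples, and had 5.46, 6.39, 6.02 and 6.32 in non-transgenic samples. All RNAi-transgenic samples were above all non-transgenic ones, and the difference was 5.34-fold (log2 2.42, SE 0.20, limma adjusted p = 3.95e-06). Pfkfb2, the heart isoform, ranged from 5.70 through 6.02 to 6.57 in RNAi-transgenic samples, and had 5.51, 5.26, 5.80 and 5.23 in non-transgenic samples, with non-transgenic replicate 7 inside the RNAi-transgenic range. It was 1.55-fold higher (limma adjusted p = 0.0129). Pfkfb4 was below the filter, and Pfkfb1 is not analysed here for the same reason as Gpi1.

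**Figure D2:**
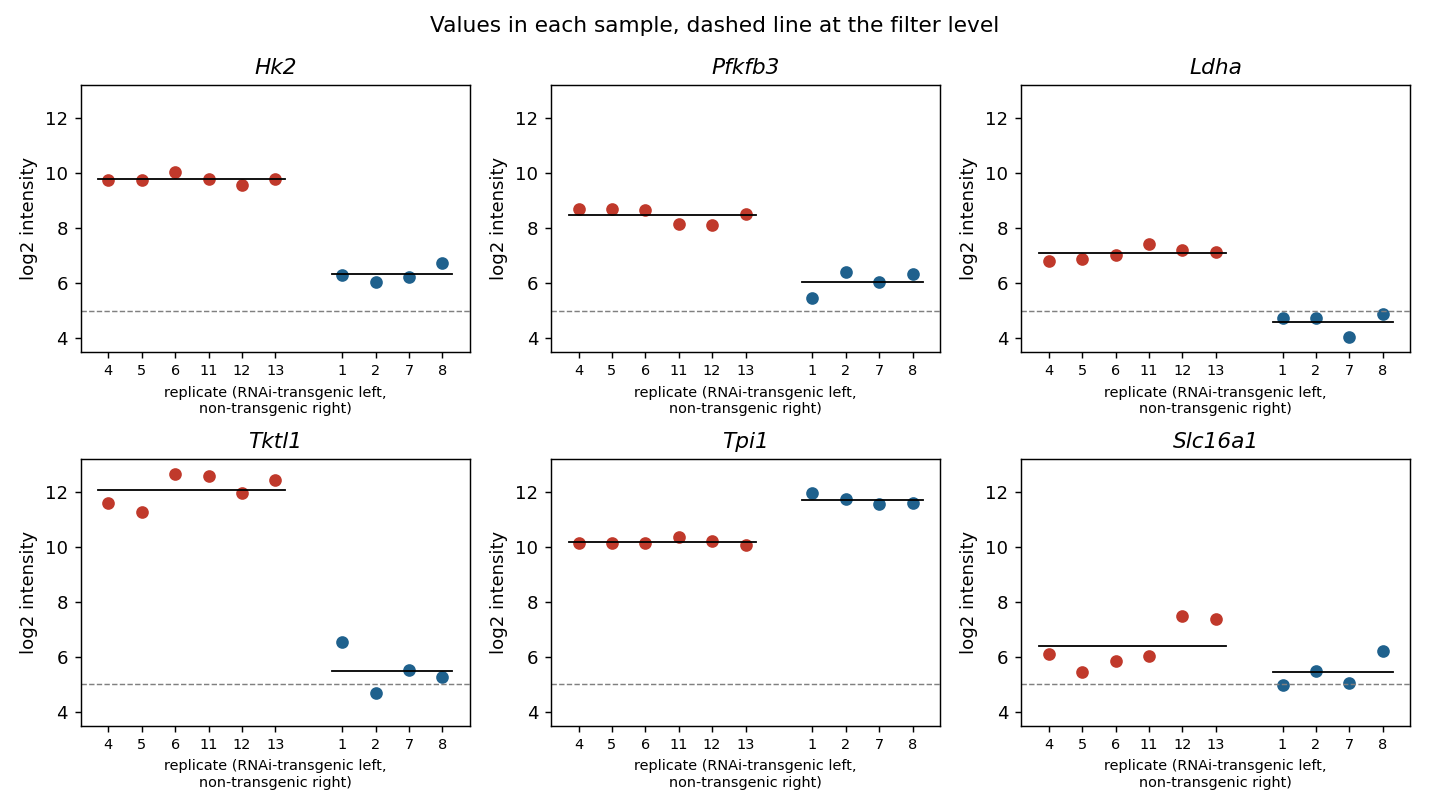
Log2 intensity of Hk2, Pfkfb3, Ldha, Tktl1, Tpi1 and the variable Slc16a1 in every sample, RNAi-transgenic replicates left and non-transgenic replicates right in each panel, with group means as lines and the filter level of log2 5 dashed. Hk2 lies between 9.55 and 10.04 in RNAi-transgenic and between 6.03 and 6.71 in non-transgenic samples.

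In the middle of the chain, neighbouring steps moved in opposite directions. Aldoa, the main aldolase, averaged 12.01 ± 0.09 (SD, n = 6) in RNAi-transgenic and 11.45 ± 0.08 (SD, n = 4) in non-transgenic oocytes and was 1.47-fold higher (limma adjusted p = 5.57e-05). Aldoc, the brain aldolase, ranged from 5.11 through 5.58 to 6.17 in RNAi-transgenic samples, and had 4.85, 4.82, 4.68 and 4.63 in non-transgenic samples, which is at least 1.48-fold higher (limma adjusted p = 0.0048). Aldoc passed the filter only through RNAi-transgenic samples, so the groups had to differ. Tpi1, the isomerase that interconverts the triose phosphates, ranged from 10.06 through 10.13 to 10.34 in RNAi-transgenic samples, and had 11.97, 11.73, 11.56 and 11.59 in non-transgenic samples. It was 2.93-fold lower without overlap (log2 -1.55, SE 0.09, limma adjusted p = 2.89e-07), and its further probe sets differed by -1.40 and -1.48. Pgk1, the first step that makes ATP, averaged 11.16 ± 0.05 (SD, n = 6) in RNAi-transgenic and 10.89 ± 0.09 (SD, n = 4) in non-transgenic oocytes, 1.21-fold higher (limma adjusted p = 0.00502).

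Gapdh, which sits between Tpi1 and Pgk1, is carried on this array only by control probe sets, so it was left out of the gene fit and compared by an exact permutation test. Its 3′ probe set had 9.38, 9.16, 9.05, 9.29, 9.56 and 9.38 in RNAi-transgenic replicates 4, 5, 6, 11, 12 and 13, and 9.97, 10.08, 10.14 and 10.02 in non-transgenic replicates 1, 2, 7 and 8. The groups did not overlap, with a log2 difference of -0.75 (two-sided exact permutation p = 0.00476, the smallest that 210 splits allow). The middle probe set differed by -0.55 (8.03 ± 0.20 in RNAi-transgenic, SD, n = 6, and 8.58 ± 0.10 in non-transgenic oocytes, SD, n = 4, exact permutation p = 0.00476). The dim 5′ probe set differed by -0.47 with overlap (exact permutation p = 0.0381), and lost this call without any of RNAi-transgenic replicates 4, 5, 6, 11 and 13 or non-transgenic replicates 2 and 7 (exact permutation p = 0.0635 to 0.155). Kept in the gene fit, the 3′ probe set had a limma adjusted p of 0.00018.

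The 3′ minus 5′ difference of Gapdh, a sign of RNA length, was 3.77 ± 0.18 (SD, n = 6) in RNAi-transgenic and 4.05 ± 0.26 (SD, n = 4) in non-transgenic oocytes (exact permutation p = 0.114, and 0.0238 without RNAi-transgenic replicate 6 or without non-transgenic replicate 2). That of beta-actin was 3.94 ± 0.61 (SD, n = 6) and 3.74 ± 0.23 (SD, n = 4) in the same order of groups (exact permutation p = 0.714), and its part in the results was not tested.

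In lower glycolysis the phosphoglycerate mutase Pgam1 averaged 7.82 ± 0.20 (SD, n = 6) in RNAi-transgenic and 8.28 ± 0.27 (SD, n = 4) in non-transgenic oocytes, 1.37-fold lower with overlap (limma adjusted p = 0.0261). The call was lost after median centring (adjusted p = 0.0547) and without RNAi-transgenic replicate 5 (0.0525) or 11 (0.0506) or non-transgenic replicate 2 (0.0673) or 8 (0.0799). Pkm, the pyruvate kinase of most tissues outside liver and red cells, averaged 11.05 ± 0.19 (SD, n = 6) in RNAi-transgenic and 11.25 ± 0.13 (SD, n = 4) in non-transgenic oocytes (log2 difference -0.20, 95% interval -0.43 to 0.03, limma adjusted p = 0.155). The muscle mutase Pgam2 and the enolases Eno2 and Eno3 were below the filter, and Eno1 is not analysed here.

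Of the lactate dehydrogenase subunits, Ldha was higher and Ldhb was not called. Ldha, the muscle-type subunit, ranged from 6.80 through 7.08 to 7.42 in RNAi-transgenic samples, and had 4.72, 4.71, 4.05 and 4.89 in non-transgenic samples. All 4 non-transgenic values lay under log2 5, and Ldha was at least 4.22-fold higher in RNAi-transgenic oocytes (limma adjusted p = 1.01e-06). Ldha passed the filter only through RNAi-transgenic samples, so the groups had to differ. Ldhb, the heart-type subunit and the form for which mouse oocytes are known, averaged 15.69 ± 0.08 (SD, n = 6) in RNAi-transgenic and 15.74 ± 0.06 (SD, n = 4) in non-transgenic oocytes. Its log2 difference was -0.04 (95% interval -0.14 to 0.06, limma adjusted p = 0.533). Intensities near the top of the scale can be compressed by saturation, for which the deposited values carry no flag.

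In the pentose phosphate pathway Rpia, Tkt, Tktl1 and Taldo1 of the non-oxidative part were higher, while no change was resolved in the tested oxidative enzymes. Of 9 genes 7 were tested, with 4 higher and 0 lower, and all 4 were among the 5 tested non-oxidative enzymes. Pgls, the lactonase, averaged 6.99 ± 0.15 (SD, n = 6) in RNAi-transgenic and 7.04 ± 0.18 (SD, n = 4) in non-transgenic oocytes (log2 difference -0.05, 95% interval -0.30 to 0.19, limma adjusted p = 0.755). Pgd, the enzyme of the second step that makes NADPH, averaged 10.31 ± 0.29 (SD, n = 6) and 10.36 ± 0.38 (SD, n = 4) in the same groups (log2 difference -0.04, 95% interval -0.45 to 0.37, limma adjusted p = 0.887). G6pdx, the entry enzyme, is not analysed here.

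Rpia, which makes ribose 5-phosphate, ranged from 10.50 through 10.80 to 10.99 in RNAi-transgenic samples, and had 9.92, 9.62, 10.19 and 10.20 in non-transgenic samples. It was 1.76-fold higher without overlap (limma adjusted p = 0.00059). Tkt, the transketolase, ranged from 13.18 through 13.52 to 13.80 in RNAi-transgenic samples, and had 12.96, 12.42, 12.86 and 12.27 in non-transgenic samples. All RNAi-transgenic samples were above all non-transgenic ones, and the difference was 1.82-fold (limma adjusted p = 0.00175).

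Tktl1, a transketolase-like gene whose own enzyme activity is disputed, had the largest difference of all 25 genes. It had 11.59, 11.24, 12.65, 12.55, 11.95 and 12.41 in RNAi-transgenic replicates 4, 5, 6, 11, 12 and 13, and 6.53, 4.69, 5.52 and 5.25 in non-transgenic replicates 1, 2, 7 and 8. No sample of either group came near the other, and the gene was at least 90.1-fold higher (log2 difference 6.57, SE 0.36, limma adjusted p = 1.94e-07). A second probe set of Tktl1 had 7.80, 7.64, 8.90, 9.20, 8.60 and 9.05 in the same RNAi-transgenic samples and 3.55, 2.15, 2.71 and 2.82 in the same non-transgenic samples, again without overlap. In both probe sets RNAi-transgenic replicates 4 and 5 were the lowest of their group.

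Taldo1, the transaldolase, averaged 10.86 ± 0.21 (SD, n = 6) in RNAi-transgenic and 10.56 ± 0.11 (SD, n = 4) in non-transgenic oocytes, 1.23-fold higher with overlap and barely past the threshold (limma adjusted p = 0.04996). The call was lost when any single sample other than RNAi-transgenic replicate 6 was left out (adjusted p = 0.0615 to 0.137). Rpe, the epimerase, averaged 10.23 ± 0.18 (SD, n = 6) in RNAi-transgenic and 9.80 ± 0.37 (SD, n = 4) in non-transgenic oocytes and just missed the threshold (log2 difference 0.43, SE 0.16, limma adjusted p = 0.0506). It was past it under 10 of 25 alternatives (adjusted p = 0.0255 to 0.0499), among them quantile normalization (0.0329) and leaving out RNAi-transgenic replicate 6 (0.0293) or non-transgenic replicate 2 (0.0323) or 7 (0.0255). Tktl2 came closest to the filter from below, with a highest sample at 4.37.

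**Figure D3:**
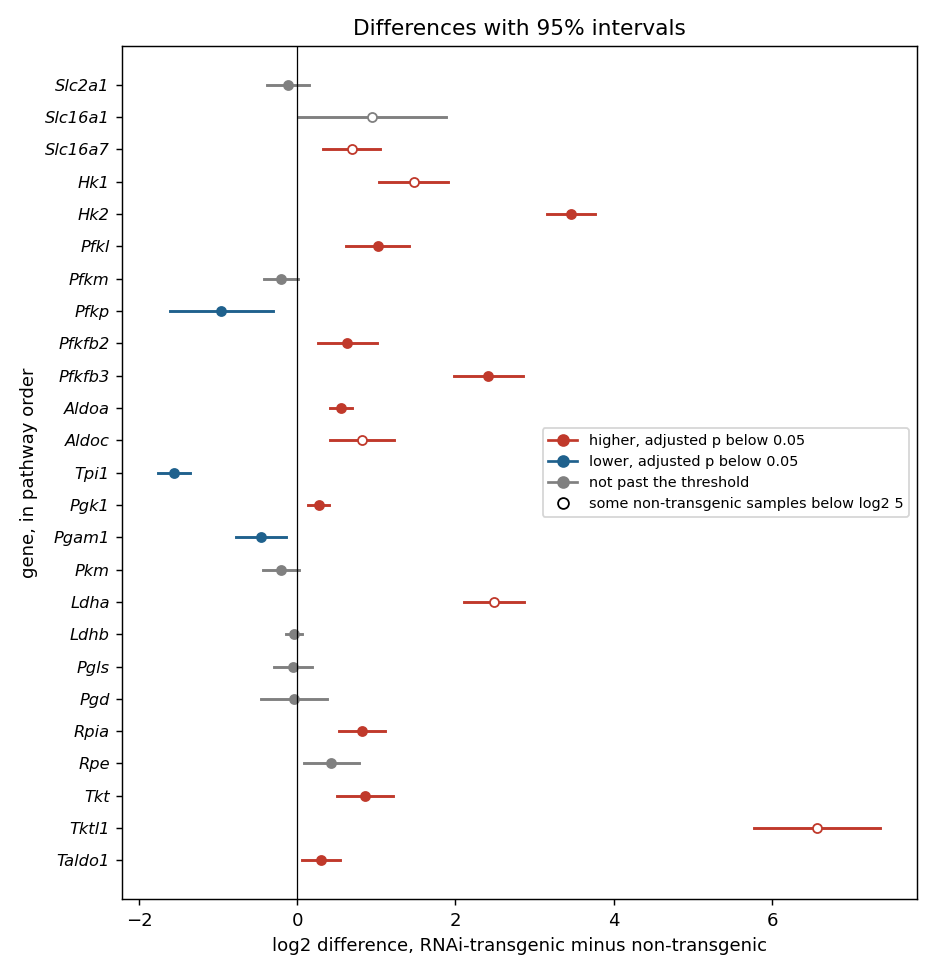
Log2 difference, RNAi-transgenic minus non-transgenic, with its 95% interval for each tested gene in pathway order, red for higher, blue for lower and grey for not past an adjusted p of 0.05. Tktl1 at 6.57 and Hk2 at 3.46 lie farthest to the right and Tpi1 at -1.55 farthest to the left.

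Where a gene had several probe sets above the filter, they gave the same call (higher, lower or not past the threshold). This held for all 20 further probe sets of 10 genes. For Slc2a1, Ldhb, Pgd and Rpe the shared call was only that none passed the threshold. Signs differed within Rpe (0.43 and -0.12) and within Slc2a1 (-0.11, -0.13 and 0.09). Those of Aldoa differed by 0.74 to 0.89, larger than the 0.55 of its brightest one, and the second probe set of Tkt differed by 0.64 (limma adjusted p = 0.0114 in a fit of single probe sets). Further probe sets below the filter were not tested. In RNAi-transgenic and non-transgenic oocytes they averaged 3.92 and 3.91 for Pfkfb3, 2.20 and 2.22 for Hk1, and 2.98 and 3.04 for Aldoc. Those of Pfkl, Pfkp and Pfkfb2 differed by -0.09 to -0.02. Those of Tkt and Tktl1 were higher by 0.89 and 1.83.

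**Figure D4:**
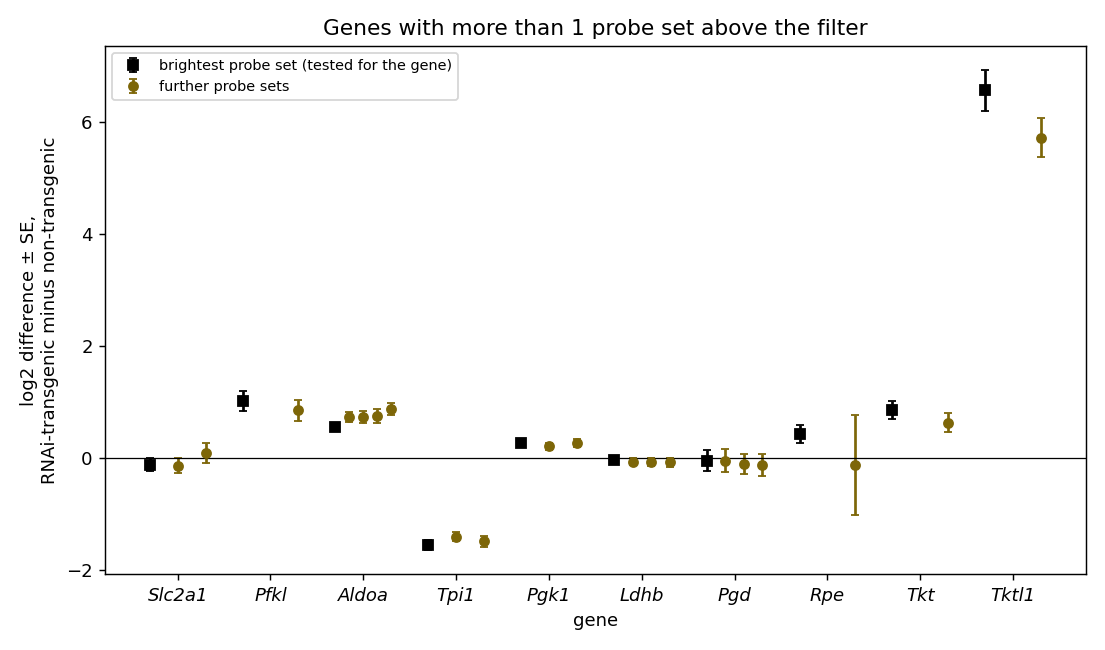
Log2 difference with its SE for each probe set of the genes with more than 1 probe set above the filter, squares for the brightest probe set and circles for further ones. The probe sets of Tpi1 lie between -1.55 and -1.40, all below 0.

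Other genes around these pathways were counted from lists written with earlier results of these data known, and each list stands beside the same 18.9% higher and 18.3% lower among all genes. Of the other hexose transporters, 6 of 11 were tested, with 2 higher and 1 lower (median log2 difference 0.12). Slc2a12 averaged 8.33 ± 0.26 (SD, n = 6) in RNAi-transgenic and 6.32 ± 0.06 (SD, n = 4) in non-transgenic oocytes (4.00-fold higher, limma adjusted p = 6.85e-07). Slc2a9, a urate and hexose carrier, was 2.80-fold higher (limma adjusted p = 1.73e-06) and Slc2a10 was 2.30-fold lower (limma adjusted p = 0.00218). Of the monocarboxylate transporter family and its chaperones, 9 of 13 were tested, with 4 higher and 1 lower (median 0.54). Slc16a5 averaged 8.94 ± 0.17 (SD, n = 6) in RNAi-transgenic and 5.27 ± 0.11 (SD, n = 4) in non-transgenic oocytes, 12.7-fold higher (limma adjusted p = 1.48e-09). Slc16a13 was higher by 0.59 on the log2 scale (limma adjusted p = 0.000767). Slc16a12, a creatine carrier, averaged 4.94 ± 0.51 in RNAi-transgenic oocytes (SD, n = 6), with 2 of 6 samples above the filter level, and 7.40 ± 0.35 in non-transgenic oocytes (SD, n = 4), at least 4.62-fold lower (limma adjusted p = 2.78e-05).

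Of the other glycolytic isoenzymes, 9 of 15 were tested, with 0 higher and 3 lower (median -0.18). Gckr, the regulator of glucokinase, was 1.37-fold lower (limma adjusted p = 0.00397). Ldhc, the germ cell subunit of lactate dehydrogenase, averaged 6.92 ± 0.76 (SD, n = 6) in RNAi-transgenic and 8.24 ± 0.89 (SD, n = 4) in non-transgenic oocytes (limma adjusted p = 0.0408). Its call was lost without RNAi-transgenic replicate 4, 5, 6 or 11 or non-transgenic replicate 2, 7 or 8 (adjusted p = 0.0547 to 0.121). In gluconeogenesis 3 of 9 were tested, with 1 higher and 1 lower. Both were fructose bisphosphatases, of which Fbp2 was 1.96-fold higher (limma adjusted p = 0.000331) and Fbp1 was 1.44-fold lower (limma adjusted p = 0.000412).

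Of the glycogen and galactose genes, 17 of 26 were tested, with 5 higher and 1 lower (median 0.06). Phkg1 was at least 1.39-fold higher (limma adjusted p = 0.00266), with 1 of 4 non-transgenic samples above the filter level. Galt, which feeds galactose into glucose phosphate, was 1.59-fold higher (limma adjusted p = 0.00328). The lower gene, Pgm2l1, was 1.59-fold lower (limma adjusted p = 0.0252). In the hexosamine pathway 10 of 12 were tested, with 4 higher and 0 lower (median 0.07). Gfpt2, one of its entry enzymes, averaged 7.83 ± 0.26 (SD, n = 6) in RNAi-transgenic and 5.85 ± 0.75 (SD, n = 4) in non-transgenic oocytes, 3.94-fold higher (limma adjusted p = 0.000296). In the polyol, fructose and methylglyoxal genes 3 of 8 were tested, with 1 higher and 1 lower (median -0.08). Glo1, which clears the methylglyoxal that triose phosphates form, was 3.48-fold higher (limma adjusted p = 0.00037). Hagh was 1.49-fold lower (limma adjusted p = 0.0396), a call kept under 13 of 25 alternatives.

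Of the pentose phosphate neighbours, 8 of 11 were tested, with 1 higher and 1 lower (median 0.11). Xylb, the xylulose kinase, was 2.48-fold higher (limma adjusted p = 9.43e-05). Prpsap1, a partner of the enzyme that turns ribose phosphate into the nucleotide precursor PRPP, averaged 10.84 ± 0.09 (SD, n = 6) in RNAi-transgenic and 11.98 ± 0.07 (SD, n = 4) in non-transgenic oocytes, 2.21-fold lower (limma adjusted p = 2.08e-07). Of the regulators of pyruvate dehydrogenase, 6 of 9 were tested, with 0 higher and 2 lower (median -0.05), which were Pdpr (2.35-fold, limma adjusted p = 0.00113) and Pdk3 (1.38-fold, limma adjusted p = 0.00946). Among regulators of glycolytic genes 16 of 23 were tested, with 5 higher and 1 lower (median 0.08). Epas1 (HIF-2 alpha) ranged from 5.81 through 7.40 to 8.45 in RNAi-transgenic samples and from 5.11 to 5.17 in non-transgenic samples, 4.72-fold higher (limma adjusted p = 0.00128), while Mlxipl (ChREBP, a glucose-responsive factor) was 1.46-fold lower (limma adjusted p = 0.0005).

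Markers of other ovarian cells were measured beside these results, since cumulus and granulosa cells are glycolytic. Their counts also stand beside 18.9% higher and 18.3% lower among all genes tested. Of 25 granulosa and cumulus markers, 10 were tested, with 2 higher (Fshr and Cyp11a1, named after their values were seen, by 1.24 and 1.57 on the log2 scale) and 0 lower. The log2 of their summed intensities lay between 10.84 and 11.54 in RNAi-transgenic and between 10.86 and 11.04 in non-transgenic samples (exact permutation p = 0.238). This kind of sum, used for each marker list, weighs bright markers most. Here the brightest was Nr5a2, which was not called, so the sum says little about the dimmer markers. Of the 10, 8 differences were above 0, with a median log2 difference of 0.44. A further 13 markers were below the filter, with highest samples from 1.72 (Amh, the ligand that granulosa cells secrete) to 5.19 (Fst), and Amhr2 at 2.62, Inhba at 4.93 and Foxl2 at 5.08 between these. The most abundant of the list were Nr5a2 (9.87 ± 0.24 in RNAi-transgenic, SD, n = 6, and 9.94 ± 0.10 in non-transgenic oocytes, SD, n = 4), Gja1 (8.56 ± 0.60 and 8.01 ± 0.64) and Gata4 (7.61 ± 0.29 and 7.98 ± 0.33), given in the same order. Of 12 stroma and vessel markers, 5 were tested, with 3 higher and 1 lower (median log2 difference 0.81), and their sum lay between 9.02 and 9.46 in RNAi-transgenic and between 8.76 and 9.05 in non-transgenic samples (exact permutation p = 0.0143, and 0.0857 without RNAi-transgenic replicates 12 and 13). The most abundant were Col4a1 (7.80 and 7.86 in RNAi-transgenic and non-transgenic oocytes), Postn (7.48 and 6.68) and Kdr (6.72 and 5.53). The other 7 were below the filter, with highest samples from 2.47 (Lum) to 5.08 (Col1a1). Of 12 blood and immune markers, 3 were tested, with 1 higher and 1 lower (median log2 difference 0.33) and a sum between 11.42 and 12.10 in RNAi-transgenic and between 11.71 and 12.03 in non-transgenic samples (exact permutation p = 0.529). The 3 tested were Srgn (10.71 and 11.27), H2-Aa (9.73 and 9.40) and Laptm5 (9.61 and 8.54 in RNAi-transgenic and non-transgenic oocytes), of which Laptm5 lost its call without non-transgenic replicate 2, 7 or 8. A further 7 were below the filter, with highest samples from 1.44 (Alas2) to 4.995 (Csf1r). The part of other cells in the results above was not tested.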

How the data were processed

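Messenger RNA of 10 oocyte samples was measured on 1 biotin-labelled oligonucleotide array each. The authors deposited 1 linear expression intensity per probe set and array, made with GCRMA (version not stated) per the submitters' processing notes. GCRMA models background from probe sequence, quantile-normalizes arrays and pulls dim probe sets toward a floor. The deposited intensities carry no detection flag. The labels describe about 50 oocytes per sample and a labelling of about 15 µg of total RNA, and name no amplification step between these. Replicates are separate mice per the labels. Array medians were intensities of 17.5 to 20.1, with 40.1% to 40.9% of probe sets above the filter level. The number of arrays limits the precision.

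Intensities were put on the log2 scale without further normalization. Of 45101 probe sets, 34958 had 1 gene in the platform annotation, 932 had several and 9211 were not listed. Across these classes 64 were array controls, which were left out. Each gene took its probe set with the highest mean over all samples, and was tested if above log2 5 in at least 4 of 10 samples. Groups were compared with limma 3.58.1 (lmFit, eBayes with a trend) in R 4.3.3 over all 10590 genes, after a check on simulated data, with Benjamini-Hochberg adjustment and a threshold of 0.05. Differences are RNAi-transgenic minus non-transgenic. Where samples of the dimmer group were below log2 5, they were set to that level and the fold is given as at least that large. Values outside the gene fit were tested by exact permutation (two-sided, 210 splits). Figures were drawn with matplotlib 3.10.9 and tables with pandas 2.3.3 in Python 3.11.15.

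The genes and lists were chosen with earlier results of these data known, so no test over a list is given. All 39 genes are accounted for. Those past the threshold and at least 1.5-fold different have every non-transgenic value. For RNAi-transgenic samples they have every value or the lowest, median and highest. The others have means or ranges, or values by sample where these varied. From each other list the text names the first of up to 3 higher and 3 lower genes by adjusted p, and from each marker list the 3 most abundant. Promoter sequences are RefSeq's, found for 36 of the 39 genes, and no protein sequence was used here. The arrays come with no named build. Alternatives were no filter, a level of log2 7, centring on the array median, quantile normalization, log2(value + 16), robust eBayes or eBayes without a trend, array weights, the replicate number range as covariate or subset, leaving out each sample, averaging a gene's probe sets, testing single probe sets and a threshold of 0.01. Chosen after seeing the data were leaving out RNAi-transgenic replicates 12 and 13, keeping array controls in the fit, and centring on probe sets above the filter level.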

Additional observations from a re-analysis of the deposited data

Results flagged for a closer look

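Of 70 groups of values examined for a stray sample, 3 held a sample far from the others, where chance gives about 1 in 20. Aldoa was at log2 11.84 in RNAi-transgenic replicate 4, against 12.01 to 12.10 in the other RNAi-transgenic samples, still above all non-transgenic samples. The Gapdh 3′ minus 5′ difference was 4.12 in RNAi-transgenic replicate 6, against 3.63 to 3.75 in the other samples of that group. The beta-actin 3′ minus 5′ difference was 5.13 in the same replicate, against 3.40 to 3.93 in the others.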

How the results depend on the processing

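No paired analysis was possible because the groups share no replicate number. With each sample left out in turn, 13 to 15 of the pathway genes were higher and 1 to 3 lower, 1 being the count without non-transgenic replicate 8. Within samples numbered 1 to 6, 8 were higher and 1 lower, with 5 samples in the fit, and within samples numbered 7 to 13, 13 were higher and 2 lower. At an adjusted p below 0.01, 1 was lower. Within samples 1 to 6 the calls of Slc16a7, Pfkl, Pfkp, Aldoc, Pgk1, Pgam1, Tkt and Taldo1 were lost, and within samples 7 to 13 those of Pfkfb2 and Pgam1. Of the other genes named, apart from Phkg1, Pgm2l1 and Hagh, the calls of Slc2a10, Gckr, Ldhc, Galt, Glo1, Pdk3, Mlxipl, Postn, Laptm5 and Srgn were lost within samples 1 to 6. Those of Ldhc, Pdpr and Epas1 were lost within samples 7 to 13. Phkg1, Pgm2l1 and Hagh kept theirs under 23 of 24, 20 of 25 and 13 of 25 alternatives. Slc16a1 passed with the number range as a covariate (adjusted p = 0.0492), Gata4 without non-transgenic replicate 7 (0.0387) and Nlrp5 under 3 alternatives (0.0121 to 0.0337). Taldo1 was called under 11 of 25 alternatives. Hk1, Hk2, Pfkfb3, Aldoa, Tpi1, Ldha, Rpia and Tktl1 kept their call under every alternative run. Over all genes, 1905 were higher and 2252 lower after quantile normalization, 1982 and 1452 after median centring, and 1782 and 2426 after centring on probe sets above the filter level.

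The Gapdh 5′ difference was -0.43 (exact permutation p = 0.0905) after median centring and -0.58 to -0.35 with a sample left out. The Gapdh 3′ minus 5′ difference was -0.37 (p = 0.00952, exact) with log2(value + 16) and -0.39 to -0.18 with a sample left out, past 0.05 without RNAi-transgenic replicate 6 or non-transgenic replicate 2, and that of beta-actin was -0.035 to 0.31, negative without RNAi-transgenic replicate 6. The oocyte marker sum differed by 0.031 after median centring and by -0.034 to 0.012 with a sample left out. The stroma sum differed by 0.36 (exact permutation p = 0.0857) without RNAi-transgenic replicates 12 and 13. Signs turned in small differences that were not called: Pgls (-0.10 to 0.036 with a sample left out, 0.025 without replicates 12 and 13), Pgd (0.029 within samples 7 to 13, -0.22 to 0.059 with a sample left out), Oosp1 (0.034 after median centring, 0.025 within samples 1 to 6, -0.024 to 0.012 with a sample left out), Col4a1 (-0.11 to 0.046 with a sample left out) and H2-Aa (-0.0015 within samples 7 to 13). The cause was not tested. Dim values near the floor limit the folds of Slc16a7, Aldoc, Ldha, Hk1 and Tktl1. The folds of Epas1 and Slc16a5 may be limited too. Their non-transgenic values, 5.11 to 5.17 and 5.18 to 5.38, lay just above the filter level.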

Other observations

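A second probe set of Rpe, chosen after its values were seen, fell into separate clusters that did not follow the groups. It was at log2 9.10 to 9.20 in RNAi-transgenic replicates 4, 5, 12 and 13 and at 6.05 and 6.17 in replicates 6 and 11. In non-transgenic samples it was at 9.19, 9.37 and 8.76 in replicates 2, 7 and 8 and at 5.70 in replicate 1.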
